A study of Mus musculus with 10 samples.

Results

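The comparison described here sets mouse embryonic stem (ES) cells that lack Tet2 directly against ES cells that lack Tet1, on the same array. Its members are the arrays that carry RNA of the male Tet2 knockout line 16 (T2KO 16) in the dye Cy5 and RNA of the male Tet1 knockout line 65 (T1KO 65) in the dye Cy3, and these were 2 of the 10 arrays of the series. Each genotype is 1 line here, both arrays carry the same pair of lines, and the dyes were not swapped. The 2 arrays therefore count as 1 replicate, and every value below compares these lines in these dyes, without a test between genotypes. The labels place the lines on a mixed C57BL/6 background. The cells grew with LIF, the cytokine that maintains mouse ES cells, on irradiated feeder fibroblasts, which were taken off by preplating before RNA extraction. Each labelling started from 200 ng of total RNA. The labels do not state the passage number of the lines, nor which part of either Tet gene was removed.

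The Tet enzymes (Tet1, Tet2, Tet3) add oxygen to the methyl group of methylated cytosine, forming hydroxymethylcytosine and then further products, a route by which CpG methylation can be lost. Mouse ES cells express Tet1 and Tet2, and lines kept in serum and LIF move between a naive state, resembling the inner cell mass of the blastocyst, and a primed state, resembling the epiblast after implantation. A small and changing share of ES cells also expresses genes of the embryo at the stage of the 2 blastomeres.

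The other arrays of the series are used only as a scale. They hold the wild-type (WT) lines 6 and 92 (male) and 7 and 94 (female) in Cy3, the double knockout (DKO) lines 51 and 61 (male) and 60 and 59 (female) in Cy5, and the Tet1 knockout line labelled male T1KO 99 in Cy3. The male DKO arrays, the female DKO arrays and the other arrays each lay on a slide of their own, so slide and group cannot be told apart outside the direct comparison. On the 2 arrays of the direct comparison, 55.3% and 57.7% of gene spots were well above background in Cy3, and 62.6% and 67.1% in Cy5.

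The ratio is given as log2 of Cy5 over Cy3, so a value above 0 is higher in T2KO 16 and a value of 1 is a difference of 2-fold. A gene was measured if its probe was well above background on both arrays in at least 1 channel, and its brightest such probe stands for it. This gave 19425 genes. The ratio was above 1 on both arrays for 240 genes (1.24% of the measured genes), called higher below, and below -1 on both for 363 genes (1.87%), called lower, which together made 3.1%. On array 1 alone 693 genes were past 1 in either direction and on array 2 alone 669, and 0 genes were past 1 in opposite directions. Across genes, which are not independent replicates and share the arrays' labelling, the arrays correlated at r = 0.963 (Spearman's rho 0.931, n = 19425 genes), and their difference had an SD of 0.116. That SD is the repeat error of hybridising this pair, and it holds no spread between lines. The counts depend strongly on the background correction and the scaling. With the background model fitted on all spots, 25 genes were higher and 22 lower, so that 53.2% of these were higher against 39.8% in the main setting. The main setting left spots below their local background out of that fit. With the median of all probes set to 0 in place of the loess curve 1105 were higher and 202 lower (84.5% higher), and the median of all genes moved by 0.27. The scanner software's own ratio gave 850 higher and 646 lower (56.8% higher), and 135 genes were higher and 217 lower, of 16465, in the authors' deposited table.

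**Figure D1:**
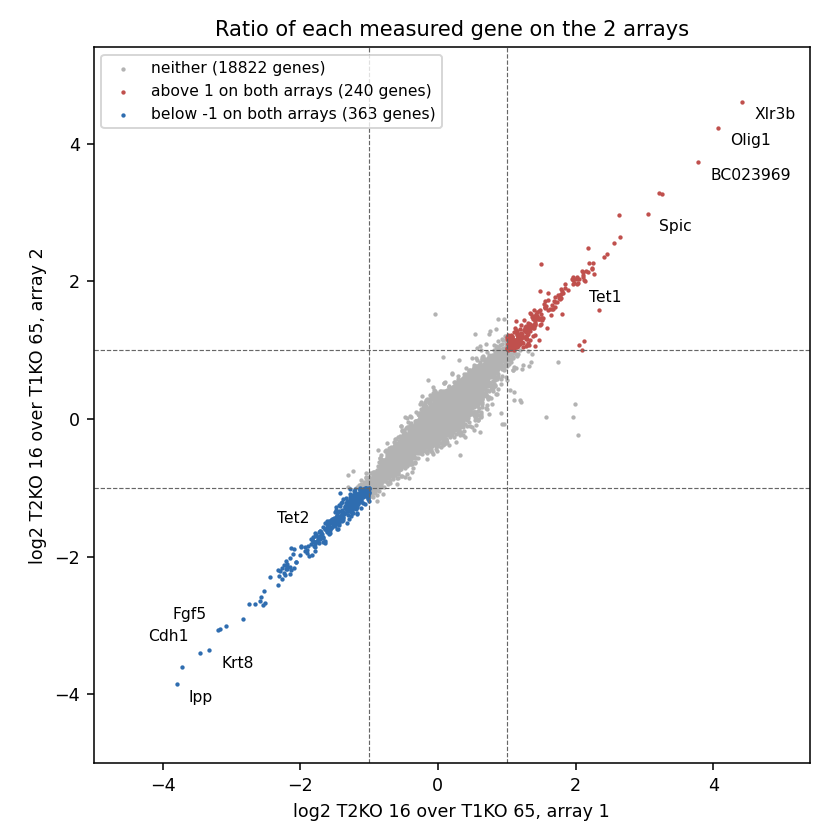
Log2 ratio of T2KO 16 over T1KO 65 for each of the 19425 measured genes on array 1 (horizontal axis) and array 2 (vertical axis). Red points are the 240 genes above 1 on both arrays, blue points the 363 genes below -1 on both, and the points lie along the diagonal with r = 0.963.

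The deleted genes were examined first. Tet1 was higher in T2KO 16, with ratios of 2.03 and 1.96 on the 2 arrays, a difference of 3.98-fold. Its probe sits at 62274448 to 62274507 of chromosome 10 (coordinates follow mm9, which the array was designed on). The normalized log2 level of Tet1 was 12.91 in T2KO 16 and 10.92 in T1KO 65, against 12.78 to 13.12 in the WT lines. The line that keeps Tet1 thus lay among the WT lines. The remaining Tet1 probes, from 62276042 to 62276101 and from 62301856 to 62301915, had mean ratios of 1.88 and 2.17. Tet2 was lower in T2KO 16, at -1.70 and -1.68, with a level of 9.74 against 11.43 in T1KO 65 and 11.51 to 12.05 in the WT lines. This probe sits at 133126751 to 133126810 of chromosome 3. A probe beside it, from 133126905 to 133126964, had a mean ratio of -1.51. The remaining Tet2 probe, from 133176421 to 133176479, had 0.09 and 0.00, so the lower signal was seen by 2 of the 3 probes. With the background model fitted on all spots, Tet1 had 1.31 and Tet2 -0.49. Tet3 had 0.01 and -0.01, with levels of 8.42 and 8.41. Each line had the low value of the gene that its label names.

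The size of the comparison can be set beside differences between lines of 1 genotype, read in 1 dye. By the mean of the arrays, 662 genes (3.41%) were past 1 in either direction between T2KO 16 and T1KO 65. Between the male WT lines 6 and 92 there were 342 such genes (1.76%), and between the female WT lines 7 and 94 there were 437 (2.25%). Between DKO 51 and DKO 61 there were 367 (1.89%), and between DKO 60 and DKO 59 there were 207 (1.07%). T1KO 65 and T1KO 99 differed past 1 in 174 genes (0.896%). The WT counts compare lines read in 1 dye, some on 1 array each, whereas the knockout ratio crosses dyes. Lines that share a genotype thus differed in fewer of these genes, from 174 to 437. The genes were chosen for signal in T2KO 16 or T1KO 65, so genes with signal only in other lines were not counted. That choice favours a larger count for the direct comparison, by an amount that was not tested. The genes were in part shared: of the 363 lower genes, 91 were below -1 in WT 6 minus WT 92 and 7 were above 1, against 1.07% and 0.69% of all genes in these directions. Of the 240 higher genes, 28 were above 1 and 6 below -1 in the same WT difference. Across all genes the ratio correlated with WT 6 minus WT 92 at r = 0.39 (rho 0.345) and with WT 7 minus WT 94 at r = 0.295 (rho 0.287), as a description over 19425 and 19417 genes. The female WT difference, line 7 minus line 94, was above 1 in 41 of the higher genes (1.16% of all genes) and below -1 in 50 of the lower genes (1.09%). It went the opposite way, past 1, in 16 of the higher and 8 of the lower genes. Differences between DKO lines overlapped too: DKO 51 minus DKO 61 was above 1 in 43 of the higher genes (0.921% of all) and below -1 in 60 of the lower genes (0.968%). Here 16 of the higher and 6 of the lower genes went the opposite way past 1. For DKO 60 minus DKO 59 the counts were 9 (0.494%) and 23 (0.572%), and in the opposite directions 15 and 9. In this pair the higher genes thus went the opposite way more often. T1KO 65 minus T1KO 99 was above 1 in 41 of the lower genes (0.515% of all) and below -1 in 28 of the higher genes (0.381%), with 1 and 2 in the opposite directions. T1KO 65 is part of the ratio that chose these genes, so these counts were bound to lean this way. Unlike those of the WT and DKO pairs, they show no overlap with an independent difference. T1KO 99 minus the male WT lines was above 1 in 14 of the lower genes (0.525% of all) and below -1 in 17 of the higher genes (0.541%). It was also below -1 in 11 of the lower genes and above 1 in 12 of the higher genes, so neither direction clearly prevailed. The range among the 4 WT lines was at least as wide as the knockout ratio for 66 of the 240 higher and 87 of the 363 lower genes, and for 14396 of all 19425 genes, most of which had small ratios. That range was above 1 in 44.6% of the higher, 53.7% of the lower and 6.87% of all genes.

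Among the lines read in Cy3, T1KO 65 stood above all 4 WT lines in 242 of 362 lower genes, and in 5053 of 19417 genes overall. It stood below all 4 WT lines in 115 of 237 higher genes, and in 23.1% of all genes. Among the lines read in Cy5, T2KO 16 stood below all 4 DKO lines in 277 of the lower genes, and in 26.5% of all genes. It stood above all 4 in 139 of the higher genes, and in 28.2% of all genes. The ratio chose these genes, so the counts describe on which side of the pair the difference lay and support nothing further. T1KO 99 shared the position only in part. Of the 242 lower genes with T1KO 65 above all 4 WT lines, T1KO 99 was above them too in 93. Over all genes this held for 2742 of 5053, a larger share. Of the 115 higher genes with T1KO 65 below all 4, T1KO 99 was below them too in 50, against 2655 of 4486 over all genes. The ratio chose the called genes partly by their T1KO 65 level, so nothing further is drawn from these shares. T1KO 99 also differed from T1KO 65 in Y-linked genes. Eif2s3y had a level of 6.67 in T1KO 99 and 10.76 in T1KO 65, against 9.18 and 9.31 in the male and 6.11 and 6.72 in the female WT lines. The line labelled male T1KO 99 thus lay near the female lines for this gene, and it is used here only beside T1KO 65.

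**Figure D2:**
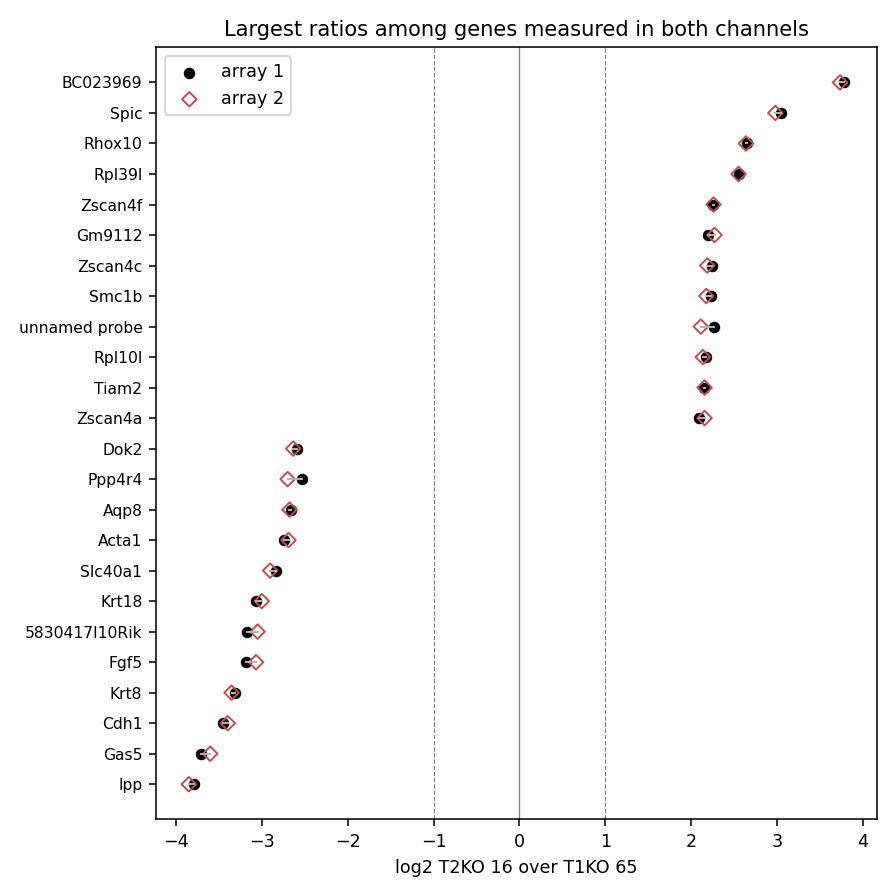
Log2 ratio of T2KO 16 over T1KO 65 on array 1 (filled circles) and array 2 (open diamonds) for the 12 largest positive and the 12 largest negative mean ratios among genes well above background in both channels. Dashed lines mark 1 and -1, and the 2 arrays lie close together for each gene, from BC023969 at 3.79 and 3.73 to Ipp at -3.79 and -3.85.

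Naive pluripotency genes were mostly higher in T2KO 16. Of 25 measured, 4 were past 1, 0 were below -1, and 20 were above 0 on both arrays, with a median of 0.40. Of all 19425 genes 1.24% were above 1 and 1.87% below -1, 8966 were above 0 on both arrays, and the median of all genes was 0.01. The largest was Nr5a2, an orphan nuclear receptor that acts upstream of Pou5f1, at 2.06 and 2.03. Its level was 13.24 in T2KO 16 and 11.19 in T1KO 65, while T1KO 99 had 12.76 and the WT lines 11.93 to 12.36. T1KO 65 had the lowest Nr5a2 level of the 11 lines. Dppa5a, an RNA-binding protein abundant in ES cells, had 1.80 and 1.53. Tcl1, a cofactor of the kinase Akt, had 1.38 and 1.32. Prdm14, which represses Dnmt3b and FGF signalling in naive cells, had 1.33 and 1.28, with levels of 11.44 and 10.14. T1KO 65 was again the lowest of the lines for these 3 genes, but by small margins. Dppa5a had 16.45 against 16.48 in WT 6, Tcl1 12.12 against 12.27 in DKO 61, and Prdm14 10.14 against 10.20 in WT 92. Zfp42, the marker known as Rex1, missed the threshold at 0.97 and 0.98, and Esrrb, a nuclear receptor of the naive network, had 0.73 and 0.81. The core factors differed less: Sox2 had 0.65 on both arrays, Nanog had 0.39 and 0.34, Pou5f1 had 0.24 and 0.29, and Klf4 had 0.14 and 0.13. Means within the list ran from -0.25 to 2.04, and 5 of the 25 genes were below 0 on both arrays.

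Genes of the primed epiblast were lower in T2KO 16. Of 14 measured, 0 were above 1 and 8 were below -1 (1.24% and 1.87% of all genes), with a median of -1.13. Fgf5, the growth factor that marks the epiblast after implantation, had -3.19 and -3.07. With the background model fitted on all spots the ratio of Fgf5 was -0.40, and the median of the list -0.17. The level of Fgf5 was 7.41 in T2KO 16 and 10.54 in T1KO 65. T1KO 99 had 9.97, the WT lines 7.40 to 9.40 and the DKO lines 9.14 to 11.31, so that T2KO 16 and the female WT 7 were the low lines. Sox3, a transcription factor of the epiblast and early neural plate, had -2.20 and -2.13. Pou3f1, a POU factor that comes on as cells leave the naive state, had -1.91 and -1.95. Dnmt3b, the de novo DNA methyltransferase of the epiblast, had -1.39 and -1.32, with levels of 14.15 and 15.51. WT 7 and DKO 51 had like Dnmt3b levels to T2KO 16, at 14.16 and 14.30. Wnt8a, Fst, Cldn6 and Krt18 were the other genes below -1. Otx2 and Nodal, which act in the same transition, did not differ past the threshold, with -0.08 and -0.06 for Otx2 and -0.06 and -0.05 for Nodal. The list's genes therefore did not all differ alike.

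The promoter of Fgf5 is rich in CpG, the sequence whose cytosine Tet enzymes oxidise. It is shown as RefSeq gives it for GRCm38.p6, 5′ to 3′ on the gene's strand, from 250 bases before to 50 after the start, at chr5:98253934-98254233 on the plus strand. Each CpG is in capitals. These 300 bases hold 29 CpG, and 87.3% of the 27025 mouse promoters in the RefSeq table hold fewer. Promoters matched to measured genes hold more CpG than that table as a whole. Their median is 19 and their 75th percentile 28, against a median of 7 over all promoters. The arrays carry no measurement of methylation.
Fgf5: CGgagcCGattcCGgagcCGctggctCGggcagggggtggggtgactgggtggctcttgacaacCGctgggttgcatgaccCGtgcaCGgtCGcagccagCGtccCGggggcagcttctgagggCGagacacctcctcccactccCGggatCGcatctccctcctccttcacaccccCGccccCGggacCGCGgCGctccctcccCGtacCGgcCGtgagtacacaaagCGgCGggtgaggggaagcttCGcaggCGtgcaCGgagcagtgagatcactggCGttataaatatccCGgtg

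Simple keratins and genes of epithelial junctions were lower in T2KO 16 as well. Of 23 measured, 0 were above 1 and 9 below -1 (1.24% and 1.87% of all genes), with a median of -0.68. Krt18 and Cldn6 are members of the primed epiblast list as well and were counted there too. Krt8 and Krt18 encode the keratin pair of simple epithelia, which is on in trophectoderm and early in ES cell differentiation. Krt8 had -3.32 and -3.35, with levels of 12.20 in T2KO 16 and 15.53 in T1KO 65. Krt18 had a mean of -3.04, with levels of 13.85 and 16.88. The WT lines were themselves far apart: Krt8 ran from 12.75 in WT 6 to 15.71 in WT 92, a range somewhat narrower than the knockout ratio. T2KO 16 had the lowest and T1KO 65 the second highest Krt8 level of the 11 lines. Krt19 had -1.93 and -1.86, and Krt7 had -1.81 and -1.77. The tight-junction gene Cldn3 had -1.72 and -1.74, and Dsp, which anchors keratin at desmosomes, had -1.45 on both arrays. Cdh1, the cell adhesion molecule E-cadherin, had the largest ratio of the list, at -3.45 and -3.40. Its levels fell into separate ranges across lines, from 8.80 to 9.33 in T1KO 99, T2KO 16, WT 92 and WT 6 and from 10.40 to 12.96 in the other lines. T1KO 65, at 12.48, was thus the line that differed from T1KO 99 and the male WT lines, and T2KO 16, at 9.05, lay beside them. Only 1 probe measured Cdh1. Epcam, an epithelial adhesion gene also high in ES cells, had -0.63 and -0.67.

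Krt8 and Krt18 are neighbours on chromosome 15 and had low and high levels in nearly the same lines. Their promoters are shown side by side with each CpG in capitals, from RefSeq for GRCm38.p6. Krt8 lies at chr15:102004293-102004592 on the minus strand and Krt18 at chr15:102027966-102028265 on the plus strand. The windows hold 6 and 17 CpG. Any relation of CpG content to the ratios was not tested.
Krt8: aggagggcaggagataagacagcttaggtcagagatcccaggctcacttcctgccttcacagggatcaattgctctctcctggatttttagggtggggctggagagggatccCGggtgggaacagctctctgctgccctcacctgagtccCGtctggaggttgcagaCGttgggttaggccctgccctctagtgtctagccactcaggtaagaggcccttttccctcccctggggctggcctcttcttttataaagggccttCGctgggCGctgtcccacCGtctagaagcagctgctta
Krt18: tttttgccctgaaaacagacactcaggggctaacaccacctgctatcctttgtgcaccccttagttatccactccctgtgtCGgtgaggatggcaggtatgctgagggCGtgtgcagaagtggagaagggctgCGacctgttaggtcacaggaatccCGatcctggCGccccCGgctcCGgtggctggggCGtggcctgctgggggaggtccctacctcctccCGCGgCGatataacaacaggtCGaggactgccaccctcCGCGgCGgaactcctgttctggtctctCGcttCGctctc

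**Figure D3:**
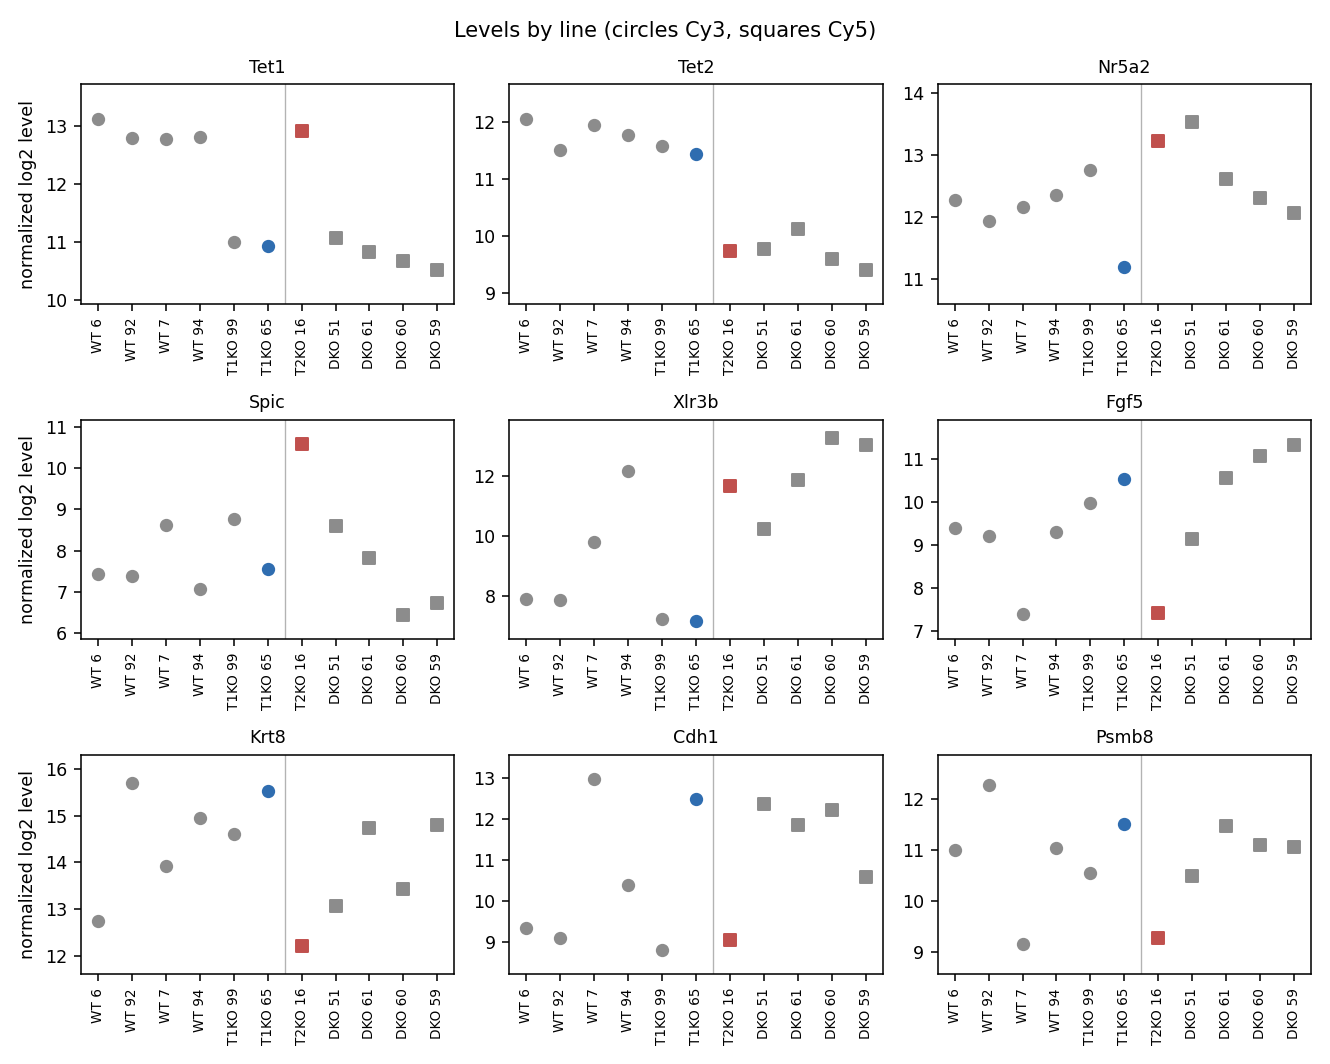
Normalized log2 level of 9 genes in the 11 lines, one panel per gene, with lines read in Cy3 as circles and in Cy5 as squares. T2KO 16 is red and T1KO 65 blue, and each panel has its own vertical scale. Tet1 and Tet2 split by genotype, whereas Krt8, Cdh1, Xlr3b and Psmb8 also spread among the grey WT and DKO lines.

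Lineage genes of the blastocyst and gastrula had lower values in T2KO 16 by smaller amounts. All genes gave 1.24% above 1 and 1.87% below -1. The trophectoderm list had 0 genes above 1 and 4 below -1 of 22, with a median of -0.49. The 4 were the keratins Krt7, Krt8, Krt18 and Krt19, which the epithelial list counts too. Cdx2, the factor that specifies trophectoderm, had -0.55 and -0.58 at levels of 7.63 and 8.19. The primitive endoderm list had 0 above 1 and 4 below -1 of 19, with a median of -0.48. These 4 were the basement membrane collagens Col4a1 at -1.55 and -1.51 and Col4a2, the forkhead factor Foxa2 at -1.40 and -1.41, and the endocytic receptor Cubn. Gata6, a factor that specifies primitive endoderm, had -0.40 and -0.56. Of 15 mesoderm and primitive streak genes, 0 were above 1 and 2 below -1, with a median of -0.29. These were Fgf8, a signal of the streak, at -1.65 and -1.77, and T (brachyury) at a mean of -1.04, which was not well above background in T2KO 16. In bulk RNA, fewer cells of a type and less RNA per cell cannot be told apart.

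Genes of the two-cell-like state had the highest median of the lists that held over 10 measured genes, at 1.12. Of 13 measured, 7 were above 1 and 0 below -1 (1.24% and 1.87% of all genes). All 13 were above 0 on both arrays, against 8966 of all 19425 genes. The Zscan4 genes encode zinc-finger proteins that come on in bursts in single ES cells. Zscan4f had 2.26 on both arrays, Zscan4c 2.25 and 2.19, Zscan4a 2.10 and 2.16, and Zscan4e 2.10 and 2.09. They are near-identical copies, and a probe of 1 can also catch RNA of another. Zscan4f had levels of 12.02 in T2KO 16 and 9.76 in T1KO 65. The WT lines ran from 9.48 in WT 92 to 14.38 in WT 7, a wider range than the knockout ratio. Gm4340, a member of another two-cell family, had 1.88 on both arrays, and Calcoco2 had 1.24 and 1.19. Zfp352, which comes on at the same stage, had 0.13 and 0.28. Gm8300 was the seventh gene past the threshold, at 1.02 and 1.23, and was not well above background in T1KO 65. Zscan4f thus differed between T2KO 16 and T1KO 65 by less than between the WT lines at their extremes.

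The promoter of Zscan4c, at chr7:11005495-11005794 on the plus strand of GRCm38.p6, is shown as an example with few CpG, in capitals. It holds 4, and 31.9% of promoters hold fewer. Of the promoters matched to measured genes, 14.9% hold 5 or fewer.
Zscan4c: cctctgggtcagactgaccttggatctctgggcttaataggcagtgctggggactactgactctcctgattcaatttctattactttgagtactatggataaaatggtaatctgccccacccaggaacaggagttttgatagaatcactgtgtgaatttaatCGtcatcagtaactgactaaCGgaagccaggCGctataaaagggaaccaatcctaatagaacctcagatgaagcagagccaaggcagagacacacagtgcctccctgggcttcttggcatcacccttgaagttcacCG

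Germline genes were higher in T2KO 16. Of 39 measured, 11 were above 1 and 0 below -1 (1.24% and 1.87% of all genes), with a median of 0.70. On both arrays 31 were above 0, against 8966 of all 19425 genes. The Xlr genes are a cluster of X-linked copies related to the synaptonemal complex protein Sycp3, and Xlr4a and Xlr4b had the largest ratios of the list. Xlr4a had 3.25 and 3.27, Xlr4b 3.21 and 3.28, and Xlr3a 2.13 and 2.01. Xlr3b, a gene of the same cluster, had the largest ratio of all, at 4.42 and 4.61. T1KO 65 was not well above background for these genes, which leaves only a bound: Xlr3b was at least 22.9-fold and Xlr4b at least 9.47-fold higher. These bounds hold for 1 background model: with the model fitted on all spots the log2 ratio of Xlr3b was 0.85 and that of Xlr4b 0.28. A bound sets the mean of the brighter line against the higher of the dim line's own value and the lowest level well above background. The levels of Xlr3b were 11.66 in T2KO 16, 7.23 in T1KO 99, 7.89 and 7.87 in the male WT lines, and 9.80 and 12.16 in the female WT lines. In the DKO lines, read in Cy5 like T2KO 16, they were 10.23 to 13.29. The lines labelled male and read in Cy3 were thus low, among them T1KO 99, whose Y-linked signal lay near the female lines. T2KO 16 lay in the range of the DKO and female lines. All lines without Tet2 were read in Cy5, so Tet2 loss and dye cannot be told apart among the lines labelled male. The copies are too alike for their probes to be told apart with certainty.

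Outside the Xlr cluster, 8 genes of the list were past 1. Smc1b, a cohesin subunit of meiosis, had 2.24 and 2.18, with a level of 10.35 in T1KO 65 against 10.96 to 11.99 in the WT lines. Rpl10l, a ribosomal protein of the testis, had 2.17 and 2.14. Piwil2, which binds piRNA, had 1.41 and 1.39, and Syce1, a part of the synaptonemal complex, had 1.33 and 1.38. Stk31, Tex15, Mael and the meiotic cohesin subunit Stag3 were the others past 1, with means of 1.20, 1.21, 1.19 and 1.16. Dazl, which binds mRNA in germ cells, had 1.09 and 0.90 and so was past the threshold on 1 array only. Sycp3, a part of the synaptonemal complex, went the other way at -0.35 and -0.32. The same list, again Cy5 over Cy3, had medians of 0.23, 0.50, 0.31 and 0.30 in the 4 DKO over WT pairs. No dye was swapped, so part of these medians may belong to the dye and cannot be told apart from genotype.

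Of the 34 germline genes with a promoter in the RefSeq table, 13 hold CACGTG, the E-box with a CpG at its centre, on either strand, against 7.24% of all promoters and 9.89% of the promoters matched to measured genes. Among the 9 of these that were past 1, 3 hold it. Stag3 is 1 of them, shown with its E-box in capitals, at chr5:138280259-138280558 on the plus strand. The window holds 30 CpG. Xlr3b, with the largest ratio, has 7 CpG in its window at chrX:73191929-73192228 on the plus strand, in capitals, and no E-box of this form.
Stag3: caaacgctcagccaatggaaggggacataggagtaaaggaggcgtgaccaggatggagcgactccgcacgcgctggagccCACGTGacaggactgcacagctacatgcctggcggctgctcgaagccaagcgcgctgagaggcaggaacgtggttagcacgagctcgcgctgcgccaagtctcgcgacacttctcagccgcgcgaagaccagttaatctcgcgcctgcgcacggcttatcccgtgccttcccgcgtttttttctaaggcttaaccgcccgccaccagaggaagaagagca
Xlr3b: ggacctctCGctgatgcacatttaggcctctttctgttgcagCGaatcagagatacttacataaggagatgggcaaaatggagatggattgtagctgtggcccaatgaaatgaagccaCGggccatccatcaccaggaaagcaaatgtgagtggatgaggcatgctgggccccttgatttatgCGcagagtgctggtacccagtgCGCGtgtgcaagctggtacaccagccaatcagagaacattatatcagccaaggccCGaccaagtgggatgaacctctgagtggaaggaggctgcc

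**Figure D4:**
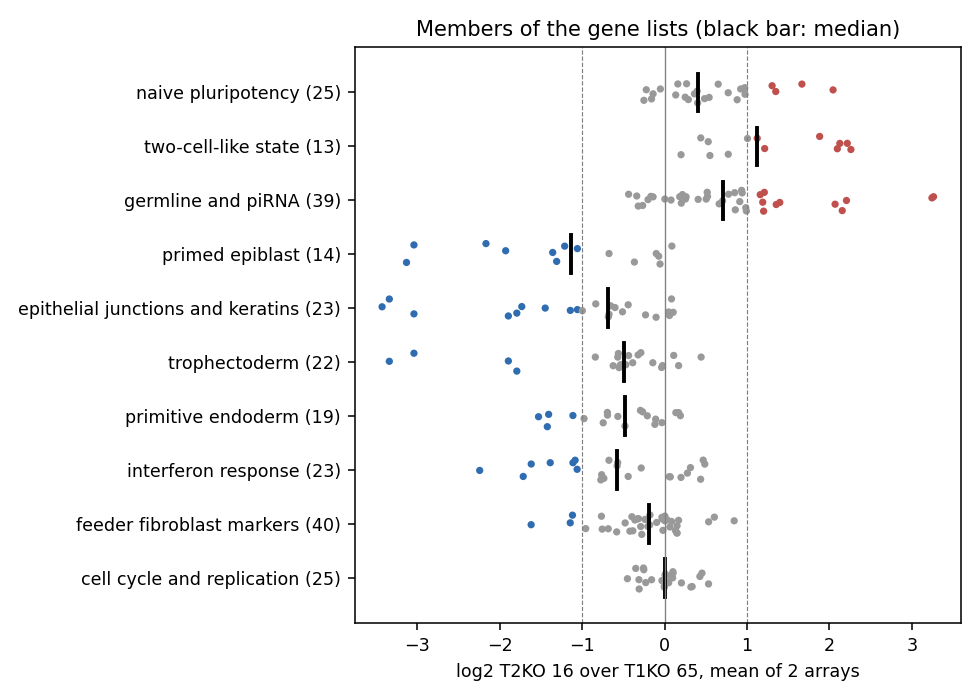
Mean log2 ratio of T2KO 16 over T1KO 65 for the measured members of 10 gene lists, with the number of members after each name. Points above 1 on both arrays are red, below -1 on both blue, and the black bar is the list's median, which runs from -1.13 for primed epiblast genes to 1.12 for the two-cell-like state.

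Outside the lists, the largest positive ratio among genes measured in both channels was that of BC023969, at 3.79 and 3.73. Its levels fell into separate ranges that crossed genotype: 13.16 and 13.02 in WT 6 and WT 94, but 9.36 and 8.75 in WT 92 and WT 7. The difference between T2KO 16, at 13.12, and T1KO 65, at 9.36, therefore equalled one seen among WT lines. Spic, an ETS-family transcription factor, had 3.05 and 2.98. Its level of 10.58 in T2KO 16 lay above every other line, of which T1KO 99 was the highest at 8.76. Rhox10, an X-linked homeobox gene of germ cells, had 2.65 and 2.64. Rpl39l, a ribosomal protein paralog, had 2.56 and 2.55, and its level of 12.94 in T2KO 16 was the highest of the 11 lines, next to 11.75 in WT 7. Tiam2, an exchange factor for the GTPase Rac, had 2.15 and 2.16. Olig1, a transcription factor of oligodendrocytes, was at least 17.8-fold higher, but its level was also 10.91 in WT 92 and 6.59 in WT 6, and its log2 ratio was 0.59 with the background model fitted on all spots. T2KO 16 had the highest level of the 11 lines for Spic, Rhox10, Rpl39l, Tiam2 and Olig1, by a small margin for Olig1 and Rhox10.

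Neural and Hox genes showed single high members rather than a shift. Of 20 neural genes, 2 were above 1 and 0 below -1 (1.24% and 1.87% of all genes), with a median of 0.18. Hesx1, a homeobox gene of the anterior epiblast and pituitary, had 2.11 and 2.07. Its level was 10.13 in T2KO 16 and 9.31 to 9.86 in the WT lines, against 9.19 in T1KO 99, 8.04 in T1KO 65 and 7.68 to 8.76 in the DKO lines. The lines with Tet1 thus had levels above all lines without it, by a small margin for T1KO 99. Tubb3, a neuronal tubulin, was the other, with a mean of 1.59. Of 14 Hox genes, Hoxb13 had 1.79 and 1.90 and Hoxb9 had a mean of 1.19, with a median of 0.16 for the list. The medians of the neural and Hox lists changed sign when the median of the measured genes was set to 0, to -0.08 and -0.23, an alternative chosen after the data were seen.

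Among the largest negative ratios, Ipp had -3.79 and -3.85, with levels of 9.62 in T2KO 16 and 13.44 in T1KO 65. Lines WT 94, DKO 51 and DKO 59 were at 9.75, 9.73 and 9.86, like T2KO 16, so Ipp too fell into ranges that crossed genotype. Gas5, a host gene of small nucleolar RNAs, had -3.71 and -3.60 by its brightest probe, but its 3 probes ran up to a mean of 1.18, so their directions disagreed. For 5830417I10Rik, at -3.17 and -3.05, the male WT lines were at 8.11 and 12.09, further apart than T2KO 16 at 8.30 and T1KO 65 at 11.41. Slc40a1, the iron exporter ferroportin, had -2.83 and -2.90, and T2KO 16 had the lowest level, 7.96, next to 8.01 in WT 7. Acta1, the actin of skeletal muscle, had -2.74 and -2.69, and T2KO 16 again had the lowest level, 8.81. Aqp8, a water channel, had -2.66 and -2.68, and its level of 9.59 in T1KO 65 was the highest of the lines, followed by 8.77 in WT 92. Dok2, an adaptor of tyrosine kinase signalling, had -2.59 and -2.64. Of these genes Aqp8 and Dok2 had their highest level of the 11 lines in T1KO 65. Ipp, Gas5, Slc40a1, Acta1 and Dok2 had their lowest in T2KO 16. The margin was small for Slc40a1, and for Dok2 at 10.69 against 10.70 in WT 6, which was read in the other dye.

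Some genes of the interferon response and of antigen presentation were lower in T2KO 16. Of 23 measured, 0 were above 1 and 7 below -1 (1.24% and 1.87% of all genes), with a median of -0.57. The 7 were mostly genes of the class I antigen pathway. Psmb8, a subunit of the immunoproteasome, had -2.22 and -2.26, with levels of 9.27 in T2KO 16 and 11.51 in T1KO 65. The WT lines spread from 9.15 in WT 7 to 12.28 in WT 92, so the range among them was wider than the ratio. H2-K1, a class I heavy chain, had -1.72 and -1.71, and H2-D1 had -1.10 and -1.02. Psmb9 had -1.14 and -1.08, and Tap1, the peptide transporter, -1.06 and -1.11. Isg15 and Oasl2, classic interferon-induced genes, had means of -1.39 and -1.62. B2m, the class I light chain, missed the threshold at -0.60 and -0.55. Of the 23 genes, 8 were above 0 on both arrays, up to a mean of 0.49 for Oasl1. The list therefore did not differ as a whole.

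Psmb9 and Tap1 start back to back on chromosome 17, and their RefSeq promoter windows overlap on opposite strands. The Psmb9 window, at chr17:34187281-34187580 on the minus strand of GRCm38.p6, is shown with its 17 CpG in capitals. The Tap1 window, at chr17:34187306-34187605 on the plus strand, holds 15.
Psmb9: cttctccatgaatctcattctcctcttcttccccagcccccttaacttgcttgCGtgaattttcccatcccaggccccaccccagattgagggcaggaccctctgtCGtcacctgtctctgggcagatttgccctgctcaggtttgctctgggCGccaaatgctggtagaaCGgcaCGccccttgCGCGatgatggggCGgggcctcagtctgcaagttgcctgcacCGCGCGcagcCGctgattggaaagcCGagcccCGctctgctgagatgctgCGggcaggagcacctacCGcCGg

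Among enzymes of DNA methylation, Tet1 and Tet2 apart, only Dnmt3b passed the threshold. Dnmt3a, the other de novo methyltransferase, had -0.76 and -0.69, and the maintenance enzyme Dnmt1 had -0.06 and -0.04. Dnmt3l, the cofactor of de novo methylation, had -0.28 and -0.25. Of 24 genes in this list 1 was higher, Tet1, and 2 were lower, with a median of -0.03.

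In signalling and regulatory lists single genes were past the threshold, where all genes gave 3.1%. The FGF and ERK list had 0 above 1 and 2 below -1 of 17, Fgf5 and Fgf8. The Nodal list had 1 above and 1 below of 14, Lefty2, a Nodal antagonist, at 1.20 on both arrays, and Furin, a protease that matures Nodal, with a mean of -1.05. The LIF list had 1 gene below -1 of 14, Myc, at -1.26 and -1.41. Of 20 p53 targets only Pmaip1, the cell death inducer Noxa, was past the threshold, at -1.22 and -1.26. Of 44 imprinted genes 2 were above 1, Ddc and Impact, and 2 below -1, Cdkn1c and Airn, and a further probe of Impact and of Airn had a mean of -0.24 and 0.09. Hypoxia and glycolysis (31 genes), cell cycle (25) and stress (24) had 0 genes past the threshold in either direction.

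The cell type was checked with markers. All 12 markers of undifferentiated ES cells were well above background on both arrays in T1KO 65, and 11 of the 12 in T2KO 16, with none of them below it on both arrays. Fibroblast markers had signal in both lines: 40 of 41 were well above background in T2KO 16 and 39 in T1KO 65, and only Igfbp7 was not in either. Whether this RNA came from remaining feeders or from the ES cells was not tested. The collagen Col1a1 had -0.10 and -0.09, Col1a2 -0.20 and -0.16, and Col3a1 0.05 and -0.04, so defining fibroblast collagens had nearly equal levels in both lines. The summed linear level of the list was 302181 in T2KO 16 and 392875 in T1KO 65, against 297738 to 536658 in the other male lines and T1KO 99. Of the 40 measured genes of the list 0 were above 1 and 3 below -1 (1.24% and 1.87% of all genes), with a median of -0.19. These were Tagln at -1.64 and -1.60, Lgals1 at -1.14 and -1.15, and Anxa1 at -1.13 and -1.10. Fn1, a fibroblast matrix gene, went the other way at 0.83 and 0.86. The part of feeder RNA in the lower genes was not tested.

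By chromosome, 2 medians stood apart. The median ratio of the 1073 measured genes of chromosome 1 was 0.20 on both arrays. Of these genes 25 were higher (2.33%) and 9 lower (0.839%), against 1.24% and 1.87% of all genes. Chromosome 8 had a median of 0.16 on both arrays over 1030 genes, with 22 higher (2.14%) and 18 lower (1.75%). The X, with a median near 0, had 19 higher (2.51%) and 22 lower (2.91%) of 756. The other autosomes and the X lay between -0.03 and 0.05. On chromosome 1, 67.2% of genes were above 0 on both arrays, and on chromosome 8, 68.3%, against 8966 of all 19425 genes. In the Cy3 lines, T1KO 65 minus the male WT lines had a median of 0.02 on each of these chromosomes, so T1KO 65 was not the line that stood apart. In the Cy5 lines, T2KO 16 minus DKO 61 had 0.19 on chromosome 1, and T2KO 16 minus DKO 51 had -0.04. DKO 51 over WT 6 had a median of 0.26 there. On chromosome 8, T2KO 16 minus DKO 51 had 0.20 and T2KO 16 minus DKO 61 had 0.08. Among the higher genes named above, Nr5a2, Prdm14, Mael and Lefty2 lie on chromosome 1 and Tubb3 and Tex15 on chromosome 8, and the part of the chromosome's median in their ratios was not tested. Whether the chromosomes are present in another number was not tested.

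**Figure D5:**
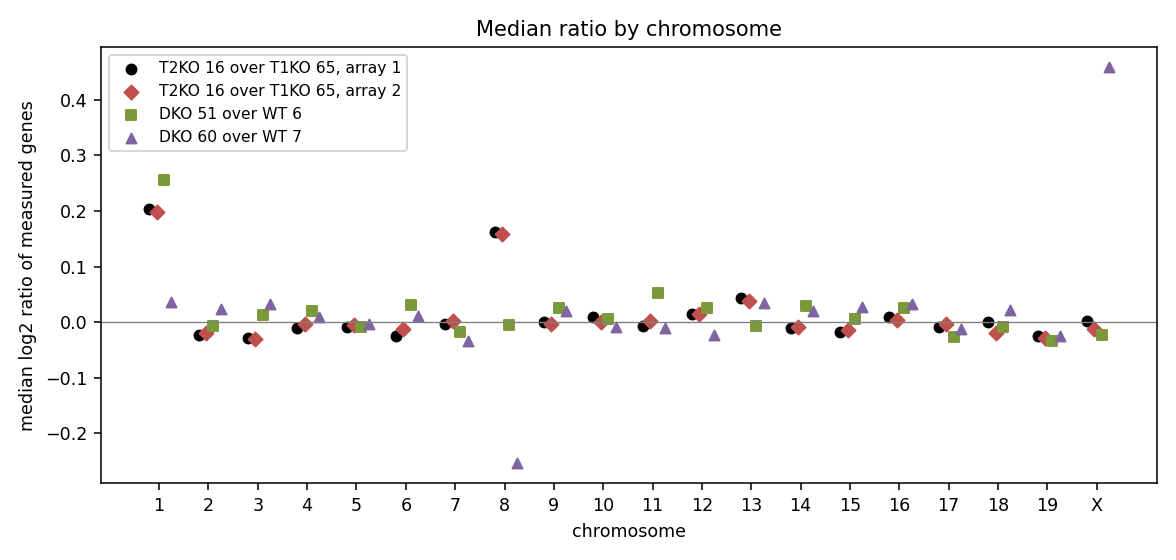
Median log2 ratio of the measured genes of each chromosome (horizontal axis) for T2KO 16 over T1KO 65 on array 1 (circles) and array 2 (diamonds), with DKO 51 over WT 6 (squares) and DKO 60 over WT 7 (triangles) beside them. Chromosome 1 at 0.20 and chromosome 8 at 0.16 stand above the others in T2KO 16 over T1KO 65, chromosome 1 also in DKO 51 over WT 6 at 0.26, and in DKO 60 over WT 7 chromosome 8 is low at -0.25 and the X high at 0.46.

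Genes past the threshold also lay in short runs, in which neighbours of the same direction were within 1 Mb of each other. A run starts and ends at called genes, so the share called inside it is high by construction. Only some runs are described. The others went from 4 of 126 measured genes, higher on chromosome 7 from 51057455 to 53359967, to 4 of 4, higher on chromosome 10 from 99760963 to 99859235. On chromosome 17 from 34065963 to 35580374 in mm9, 11 of 99 measured genes were lower, among them Psmb8, Psmb9, Tap1, Tap2, Tapbp, H2-K1 and H2-D1 of the major histocompatibility complex. On chromosome 3 from 142236032 to 142300778, 4 of 4 measured genes were lower, among them the interferon-induced GTPases Gbp2, Gbp2b and Gbp3. On the X from 70319816 to 70532113, 6 of 8 genes were higher, all of them Xlr genes. On chromosome 7 from 11379679 to 12172079, 6 of 11 were higher, with the Zscan4 cluster. On chromosome 5 from 148373791 to 148690204, 4 of 4 measured genes were lower, among them Flt1, Pomp and Slc46a3. Within 10 Mb of Tet1, 1 gene was higher and 3 lower of 121. Within 10 Mb of Tet2, 0 were higher and 5 lower of 88, and 4 of these 5 were the run on chromosome 3. Among all genes 3.1% were past the threshold in either direction.

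The same dye order is found in the DKO over WT pairs, which carry other lines. Across genes the ratio correlated with these pairs at r = 0.174 for DKO 51 and WT 6, 0.216 for DKO 61 and WT 92, -0.164 for DKO 60 and WT 7, and -0.0209 for DKO 59 and WT 94. The pairs share no sample with the direct comparison. Of the 240 higher genes, 27 were above 1 in the mean of the 4 pairs and positive in each, against 0.479% of all genes, and 11 were below -1 and negative in each. Dye, Tet2 loss and line cannot be told apart in these. Of the 363 lower genes, 6 were below -1 and negative in each pair, against 0.185% of all genes, and 11 were above 1 and positive in each. In the mean of the pairs the higher genes had a median of 0.12, the lower genes 0.11 and all genes 0.01, so the sets did not part by direction.

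On the Y chromosome, Ddx3y, an RNA helicase, had -1.30 and -1.34, whereas Eif2s3y had a mean of 0.09. The levels of Ddx3y were 8.65 in T2KO 16, 9.97 in T1KO 65, and 8.76 and 8.43 in the male WT lines. Both lines of the direct comparison thus had Y-linked signal.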

How the data were processed

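Per the labels and the file headers, each array was an Agilent 2-colour mouse array scanned and extracted with Feature Extraction, and the authors deposited its intensity per spot and dye and the scanner software's log10 ratio. The authors' deposited value table was read as log2 ratios. Its slope against the log10 ratio was 2.83, so its exact scale and processing are unknown. Column medians of that table were 0.00212 and 0.00685, and its direction was that of the scanner ratio.

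From the mean and background intensity, normexp (offset 50) and loess within each array were computed with limma 3.58.1 in R 4.3.3, with Aquantile between arrays for levels. Spots below their local background were left out (98 and 91 on the 2 arrays), a choice made after the values had been seen. The background model was also fitted without them, and fitting it on all spots gave 25 higher and 22 lower genes. Outlier and control spots were left out too. Of 39429 probes, 26581 were named through RefSeq, and 24289 were kept. The main setting was also run on simulated data with changes placed in bright spots only. That run could not judge dim genes or the choice of spots for the background model. Further tables used Python 3.11.15 with pandas 2.3.3.

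The members and lists were chosen with earlier results of these data known. Named genes were Tet1, Tet2 and Tet3, the 12 largest mean ratios in each direction among genes past the threshold and well above background in both channels, the 6 largest bounds in each direction, every list member past the threshold, and up to 4 further members of a list by size of ratio. Genes outside this rule, among them Pou5f1, Nanog, Klf4, Otx2, Nodal, Gata6, Dnmt1, Dnmt3l, Epcam, B2m, Oasl1, Sycp3, Zfp352, the fibroblast collagens and the genes of runs, were named after their values were seen. The Cy5 channel of the T1KO 99 arrays was not used, since the labels exclude it for a wrong genotype. A check of CpG content over the called genes is void and its values are not given, since only 11772 of 19425 measured genes matched a promoter. The number of arrays limits the precision, and repeat arrays of the same lines give technical spread only. Some results are not reported here.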

Additional observations from a re-analysis of the deposited data

How the results depend on the processing

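All 93 genes named in either direction past the threshold, of 184 genes named or listed, kept their sign in the 10 settings that give values. The settings with 1 array alone could not change it, since a call needed both arrays. Keeping spots below their local background reused the main fit, so it could hardly change the sign either. The number of genes higher and lower, 240 and 363, changed more. It was 25 and 22 with normexp on all spots, 1105 and 202 with median centring, 850 and 646 with the scanner software's ratio, and 135 and 217 in the authors' deposited table. At a threshold of 1.5 it was 70 and 109, and at 0.6 it was 850 and 1011. With median centring over the measured genes, chosen after the data were seen, 370 were higher and 398 lower, and 197 of the 240 were shared. Keeping spots below their local background in the ratios alone, also chosen after the data were seen, gave 240 and 363. That setting reused the background model fitted without these spots, so it could hardly change the counts. Letting them into the fit as well is the setting normexp on all spots, with its 25 and 22. Leaving out either array gave 281 to 292 higher and 388 to 401 lower. The medians of 11 of the 24 lists kept their sign in these settings. Their sizes did not keep: with normexp on all spots the median was -0.17 for primed epiblast (main setting -1.13), -0.20 for epithelial (-0.68), -0.03 for trophectoderm (-0.49), -0.025 for interferon response (-0.57), 0.11 for germline (0.70) and 0.29 for two-cell-like state (1.12), whereas naive pluripotency had 0.50 (0.40). No paired analysis was possible because the comparison holds 1 pair of lines and its result comes from no test. Genes dim in 1 channel were less precise, with an SD of 0.219 between arrays against 0.0901 for genes measured in both.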
